A study of Mus musculus with 11 samples.

Results

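Fc receptors and the signalling genes that work with them were followed in macrophages of the mouse colon. The genes were Fcgr1, Fcgr2b, Fcgr3, Fcgr4, Fcgrt, Fcer1g, Tyrobp, Trem2 and Syk, chosen by name and read from the count files by symbol. These are 9 of 23282 entries listed for every library, and all 9 were among the 6987 genes with enough counts to be tested. The adaptor genes Fcer1g and Tyrobp and the receptor gene Fcgr3 were read at 100 counts or more in 10 or 11 of the 11 libraries. Fcgr3 still fell to 4 counts in 1 wild-type library of day 0, and Tyrobp to 19 counts in 1 wild-type library of day 39. The other 6 genes also went from near 0 to high counts between libraries of the same group in at least 1 group. In no comparison of genotype or day did any of the 9 genes pass edgeR's test, while DESeq2, an alternative that called 14.5% to 30% of the genes it gave an adjusted p, called Fcgr4 or Fcgrt in some.

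The macrophages came from the colon of wild-type mice (WT) and of Csf1r-EP4-/- mice (KO). EP4, encoded by Ptger4, is one of the receptors through which prostaglandin E2 acts. The strain name joins it with Csf1r, a receptor gene of the macrophage lineage, but the labels describe neither the construct nor the age of the animals. All samples carry the same treatment note, 2.5% dextran sodium sulphate (DSS, which injures the colon lining) in the drinking water for 5 days, and the titles give day 0 or day 39. The deposited files of the 6 libraries titled day 39 are named for day 35, and the titles were followed. At day 0 there were 3 KO and 2 WT libraries, and at day 39 there were 3 of each. The cells were labelled CD45+, CD11b+, Ly6G-, Ly6C-, MHCII+ and CD64+, and CD64 is the product of Fcgr1. Whether the libraries of a group came from separate animals is not stated, so a p-value here measures only the spread between these libraries. The libraries held 4003299 to 14207919 counts, median 4867194. Ptger4, the gene named in the strain, went against the labels at day 0 and in 1 KO library of day 39, whereas the other KO libraries of day 39 lay below all WT libraries of that day. Counts at day 0 were 1350, 0 and 890 under the KO label and 0 and 0 under the WT label, while day 39 gave 1, 8 and 4501 (KO) against 1481, 152 and 7286 (WT). KO and WT therefore stand for the labels of the libraries throughout, and directions between them carry this limit.

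Fc gamma receptors bind the constant part of IgG antibodies. In the mouse, the products of Fcgr1, Fcgr3 and Fcgr4 are activating receptors that signal through the common gamma chain encoded by Fcer1g, whereas the product of Fcgr2b is inhibitory. The gamma chain and the adaptor DAP12, encoded by Tyrobp, carry an immunoreceptor tyrosine-based activation motif (ITAM), which is phosphorylated by Src-family kinases and then binds the kinase Syk. The lipid receptor Trem2 signals through DAP12, and the neonatal Fc receptor encoded by Fcgrt protects IgG and albumin from breakdown inside cells. Macrophages use this machinery to take up antibody-coated particles and dying cells.

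The stretches that set activating adaptors apart from the inhibitory receptor are shown first, because the genes are described by these roles below. They were read in the coding strand from the principal GENCODE M21 transcripts (GRCm38). Capitals mark the codons of the tyrosines and of the leucines that define an ITAM, and in Fcgr2b the codons of the isoleucine, tyrosine and leucine of its inhibitory motif (ITIM).
Tyrobp, codons 92 to 106 of 114: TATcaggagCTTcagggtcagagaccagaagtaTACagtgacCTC
Fcer1g, codons 65 to 79 of 86: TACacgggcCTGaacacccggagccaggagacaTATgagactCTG
Fcgr2b, codons 317 to 322 of 340: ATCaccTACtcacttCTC
The ITAM was searched in the coding frame as a tyrosine codon (TAT or TAC), any 2 codons and a leucine or isoleucine codon, then 6 to 8 codons and the same unit again. Among the 9 genes, Fcer1g and Tyrobp matched, while 618 of 21447 genes read in this way (2.88%) held a match. The ITIM was searched as a codon for serine, isoleucine, valine or leucine, any codon, a tyrosine codon, any 2 codons and a codon for leucine, isoleucine or valine. That pattern is loose: 10531 genes (49.1%) held it, it also lies within some ITAMs, and 6 of the 9 genes matched (Fcgr1 at 3 places; Fcgr2b, Fcgr4, Fcgrt, Fcer1g and Tyrobp at 1 each), so a match does not set Fcgr2b apart.

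**Figure D1:**
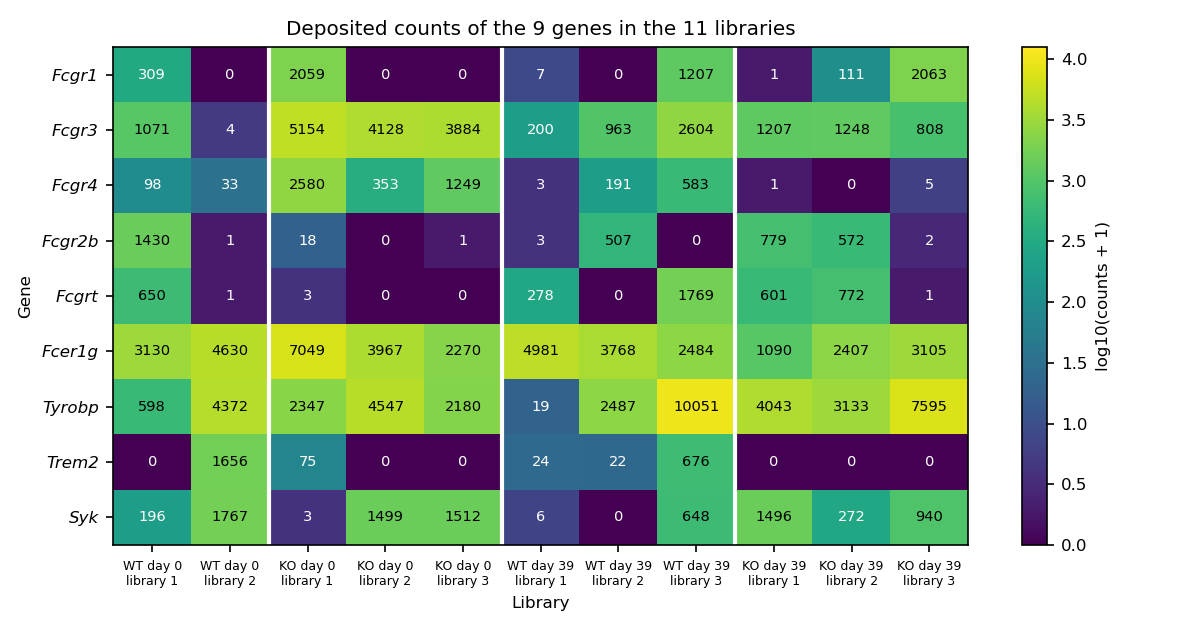
Heat map of the deposited counts, with the 9 genes from top to bottom and the 11 libraries from left to right, white lines between the groups, the count printed in each cell and colour giving log10(counts + 1). Fcer1g stayed between 1090 and 7049 counts in every library, whereas Fcgr1, Fcgr2b, Fcgrt and Trem2 each go from 0 to maxima of 2063, 1430, 1769 and 1656 counts.

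Fcer1g, the gamma chain that activating Fc receptors need for signalling and for reaching the cell surface, had the lowest coefficient of variation of CPM over the 11 libraries among the 9 genes, 0.569. KO libraries held 7049, 3967 and 2270 counts at day 0 against 1090, 2407 and 3105 at day 39, while WT libraries held 3130 and 4630 against 4981, 3768 and 2484. No library was without it and the groups overlapped in every comparison. As CPM, the count scaled to a common library size by TMM, KO averaged 597 ± 498 (SD, n = 3) at day 0 and 551 ± 313 (n = 3) at day 39. WT averaged 825 ± 376 (n = 2) and 916 ± 521 (n = 3). By edgeR's quasi-likelihood test, the log2 fold change of KO against WT was -0.47 ± 1.55 (SE, adjusted p = 0.983) at day 0 and -0.73 ± 1.40 (adjusted p = 0.983) at day 39. Only 3.61% of tested genes had at least 100 counts in all 11 libraries, as Fcer1g did.

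Tyrobp, the DAP12 adaptor, had the highest mean of the 9 genes, 796 ± 770 CPM (SD) over the 11 libraries. Counts at day 0 were 2347, 4547 and 2180 under the KO label and 598 and 4372 under the WT label, while day 39 gave 4043, 3133 and 7595 (KO) against 19, 2487 and 10051 (WT). The lowest and the highest library both belonged to WT day 39. Every KO day 39 library, at 619 to 2188 CPM, lay above every KO day 0 library, at 143 to 585 CPM. The log2 fold change of day 39 against day 0 in KO was 1.80 ± 1.36 (adjusted p = 0.460), which did not pass the test, and 8.07% of tested genes had KO groups that did not overlap in that direction. Summed epithelial markers moved the same way, from 74.7–1340 CPM in KO day 0 to 4039–9503 CPM in KO day 39, and their part in this difference was not tested.

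The balance between the adaptors differed widely among libraries. The kit reads transcripts at their 3′ end, so counts were set side by side without scaling by gene length. Fcer1g made up 19.8% to 99.6% of the summed Fcer1g and Tyrobp counts, with a median of 51.0%. The highest share was in WT day 39 library 1, where 4981 of 5000 counts were Fcer1g (95% exact binomial interval 99.4% to 99.8%), and the lowest was in WT day 39 library 3 (19.1% to 20.5%). These intervals cover counting error only, since 1 molecule can give several PCR copies. In KO the share was 75.0%, 46.6% and 51.0% at day 0 and lower in every day 39 library, at 21.2%, 43.4% and 29.0%. In WT it was 84.0% and 51.4% at day 0 and 99.6%, 60.2% and 19.8% at day 39, so the days overlapped. No test was made of these shares.

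Fcgr3, a low-affinity activating receptor for IgG complexes, was the leading Fc gamma receptor gene. In KO, 5154, 4128 and 3884 counts were read at day 0 followed by 1207, 1248 and 808 at day 39, whereas WT gave 1071 and 4 followed by 200, 963 and 2604. Both WT day 0 libraries lay below all KO day 0 libraries, at 191 and 0.942 CPM against 254 to 828 CPM, and KO day 39 was the tightest group at 264 ± 42.4 CPM (SD, n = 3). The log2 fold change of KO against WT at day 0 was 2.48 ± 2.76 (adjusted p = 0.688). It was 8.99 without WT day 0 library 1 and 1.62 without library 2, the range over 21 other fits, and it passed in none of them. At day 39 the genotypes overlapped, with a log2 fold change of -0.03 ± 2.23 (adjusted p = 1).

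Fcgr4, an activating receptor of mouse monocytes and macrophages, was high in 1 group and almost absent from another. Day 0 gave 2580, 353 and 1249 counts for KO against 98 and 33 for WT, whereas day 39 gave 1, 0 and 5 for KO against 3, 191 and 583 for WT. The libraries labelled KO held the highest values at day 0. At day 39 each of them held 5 counts or fewer, with no overlap between the days, but WT library 1 was as low, so the genotypes overlapped. KO averaged 181 ± 203 CPM (SD, n = 3) at day 0 and 0.566 ± 0.768 (n = 3) at day 39, and WT 12.6 ± 6.88 (n = 2) and 54.6 ± 65.6 (n = 3).

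The differences of Fcgr4 did not pass edgeR's test. Within KO, day 39 against day 0 gave a log2 fold change of -8.27 ± 5.05 (adjusted p = 0.334), and 3.21% of tested genes had KO groups that did not overlap in that direction. KO against WT gave 3.83 ± 4.89 (adjusted p = 0.771) at day 0 and -6.55 ± 4.68 (adjusted p = 0.521) at day 39, and their difference, the interaction of genotype and day, was -10.38 ± 7.10 (adjusted p = 0.477). These comparisons share libraries, so they are not separate evidence. The call depended on the tool: DESeq2 gave Fcgr4 an adjusted p of 0.00172 for the days within KO, 0.0313 for the genotypes at day 39 and 0.0126 for the interaction, and limma-voom gave 0.0476 for the days within KO. Over all 21 other fits of the days within KO the adjusted p ran from 0.00172 to 0.789 and the log2 fold change from -10.27 to -6.76.

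Fcgr1, the high-affinity IgG receptor CD64, was one of the surface markers used to define the cells, yet its RNA was uneven. KO libraries held 2059, 0 and 0 counts at day 0 against 1, 111 and 2063 at day 39, while WT libraries held 309 and 0 against 7, 0 and 1207. Each group held at least 1 library with 1 count or none beside 1 with 309 counts or more. In 4 of 11 libraries no count of Fcgr1 was read, where the 3 counts that a 0 still allows correspond to 0.196 to 0.707 CPM. The log2 fold change of KO against WT was 1.997 ± 4.06 (adjusted p = 0.907) at day 0 and 1.21 ± 3.41 (adjusted p = 1) at day 39, but without KO library 1 at day 0 and KO library 3 at day 39 these became -10.34 and -3.003.

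Other macrophage markers were present throughout. C1qa, C1qb, C1qc and Csf1r held at least 1329 counts in every library, while the macrophage list summed to 4395–17273 CPM and 11 of 12 markers reached 100 counts in some library, Mertk being at 0 in all. The MHC class II genes of the sort (H2-Aa, H2-Ab1, H2-Eb1 and Cd74) held at least 6644 counts in every library, whereas Ptprc (CD45) and Itgam (CD11b) were each at 0 in 1 library. Against the Ly6C- label, Ly6c1 reached 100 counts in 1 library, with 2323 counts, and Ly6c2 in 3, with up to 2100 counts. In bulk libraries, fewer cells of a type and less RNA of a gene per cell cannot be told apart.

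Fcgr2b, the inhibitory receptor, was read at 100 counts or more in 4 libraries. Counts at day 0 were 18, 0 and 1 under the KO label and 1430 and 1 under the WT label, while day 39 gave 779, 572 and 2 (KO) against 3, 507 and 0 (WT). Both KO and WT groups at day 39 mixed libraries of over 500 counts with libraries of 3 or fewer, and the only high library at day 0 was WT library 1. The log2 fold change of KO against WT at day 0 was -7.00 ± 4.92 (adjusted p = 0.423), and within KO that of day 39 against day 0 was 6.71 ± 4.76 (adjusted p = 0.417). Without WT day 0 library 1 the first became 1.85, and the second became 10.88 without KO day 0 library 1.

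Set against the activating receptors, the inhibitory receptor took a share of the summed Fcgr1, Fcgr2b, Fcgr3 and Fcgr4 counts that was either near 0 or at 29.6% and above. Fcgr2b made up 49.2% (95% exact binomial interval 47.3% to 51.0%) in WT day 0 library 1, 39.2% (37.0% to 41.4%) and 29.6% (27.6% to 31.7%) in KO day 39 libraries 1 and 2, and 30.5% (28.3% to 32.8%) in WT day 39 library 2. In the other 7 libraries it was at most 2.63%, a value that rests on 38 receptor counts in all. Fcgr3 took the largest share in 8 of 11 libraries, with a median of 59.3%. The exceptions were WT day 0 library 1, led by Fcgr2b, WT day 0 library 2, led by Fcgr4 at 86.8% of 38 counts, and KO day 39 library 3, led by Fcgr1 at 71.7%. Fcgr1 and Fcgr2b were read together at 100 counts or more in 2 libraries.

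**Figure D2:**
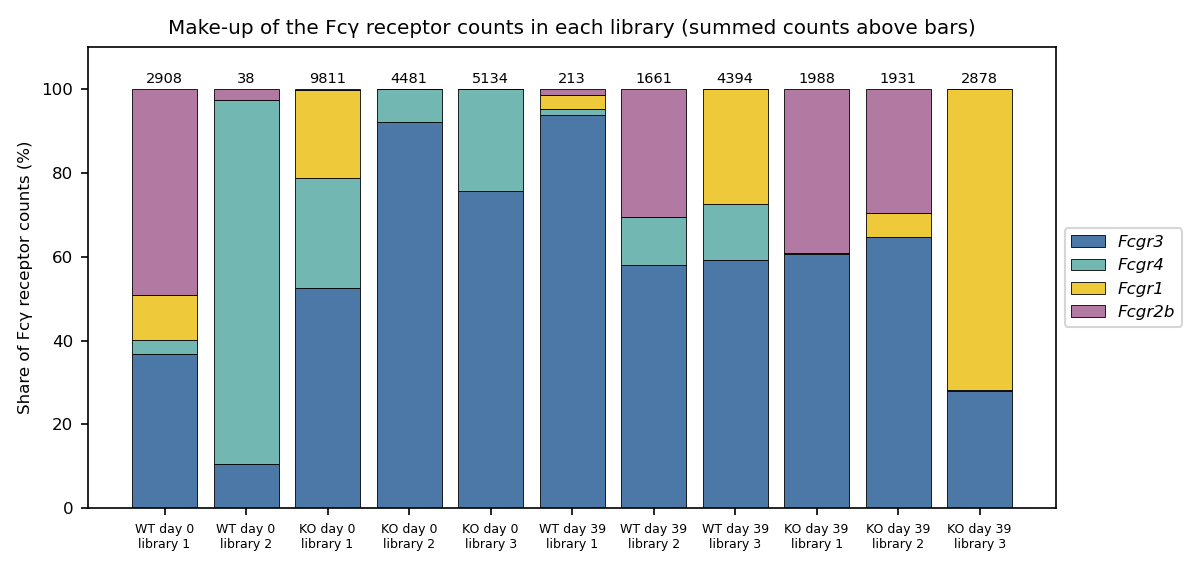
Percent of the summed Fcgr1, Fcgr2b, Fcgr3 and Fcgr4 counts taken by each gene in each of the 11 libraries, grouped by genotype label and day. Fcgr3 led in 8 libraries, and the inhibitory Fcgr2b lay at 29.6% or more in 4 libraries and at 2.63% or less in the other 7.

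Fcgrt, the neonatal Fc receptor, was either nearly absent or clearly read. In KO, 3, 0 and 0 counts were read at day 0 followed by 601, 772 and 1 at day 39, whereas WT gave 650 and 1 followed by 278, 0 and 1769. KO day 0 was the only group without a high library, and every other group held 1 library at 1 count or fewer, so the groups overlapped. Against the floor of 3 counts per library, the mean of WT day 0 was at least 164-fold higher than KO day 0, and that of KO day 39 at least 289.7-fold higher. Neither passed edgeR's test (adjusted p = 0.381 and 0.296). DESeq2 gave 0.0277 for the first, where the other fits ran up to 1, and 0.0100 for the second, where they ran up to 0.789. Without WT day 0 library 1 the fitted log2 fold change of the first went from -8.36 to -0.66, since library 2 held 1 count. B2m, the beta-2 microglobulin that pairs with the receptor, was at 4268 to 42995 counts in every library.

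Trem2, the DAP12-coupled receptor for lipids and apolipoproteins, was the least often read of the 9 genes. Day 0 gave 75, 0 and 0 counts for KO against 0 and 1656 for WT, whereas day 39 gave 0, 0 and 0 for KO against 24, 22 and 676 for WT. All WT day 39 libraries lay above all KO day 39 libraries, which were at 0 and whose floor of 3 counts each averages 0.744 CPM. The mean of WT day 39, 53.1 ± 82.2 CPM (SD, n = 3), lay at least 71.4-fold above that floor. This was the only difference among these genes with an unadjusted p under 0.05 by edgeR (adjusted p = 0.491), where 7.28% of all tested genes were under it. Of tested genes, 3.99% had day 39 genotypes that did not overlap in that direction. DESeq2 gave Trem2 no adjusted p, and over the other 20 fits it ran from 0.443 to 1. WT day 39 library 3 gave most of the signal, and libraries 1 and 2 held 7.29 and 4.05 CPM. Apoe, which encodes a ligand of Trem2, held 19265 to 107159 counts in every library.

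Syk, the kinase that docks on phosphorylated ITAMs, was read at 100 counts or more in 8 libraries. KO libraries held 3, 1499 and 1512 counts at day 0 against 1496, 272 and 940 at day 39, while WT libraries held 196 and 1767 against 6, 0 and 648. WT day 39 was the only group with 2 libraries near 0, and the groups overlapped in every comparison. Group means ran from 47.9 ± 81.4 CPM (SD, n = 3) in WT day 39 to 237 ± 169 CPM (n = 3) in KO day 39. The log2 fold change of KO against WT was -1.21 ± 3.47 (adjusted p = 0.963) at day 0 and 2.31 ± 3.30 (adjusted p = 0.916) at day 39.

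**Figure D3:**
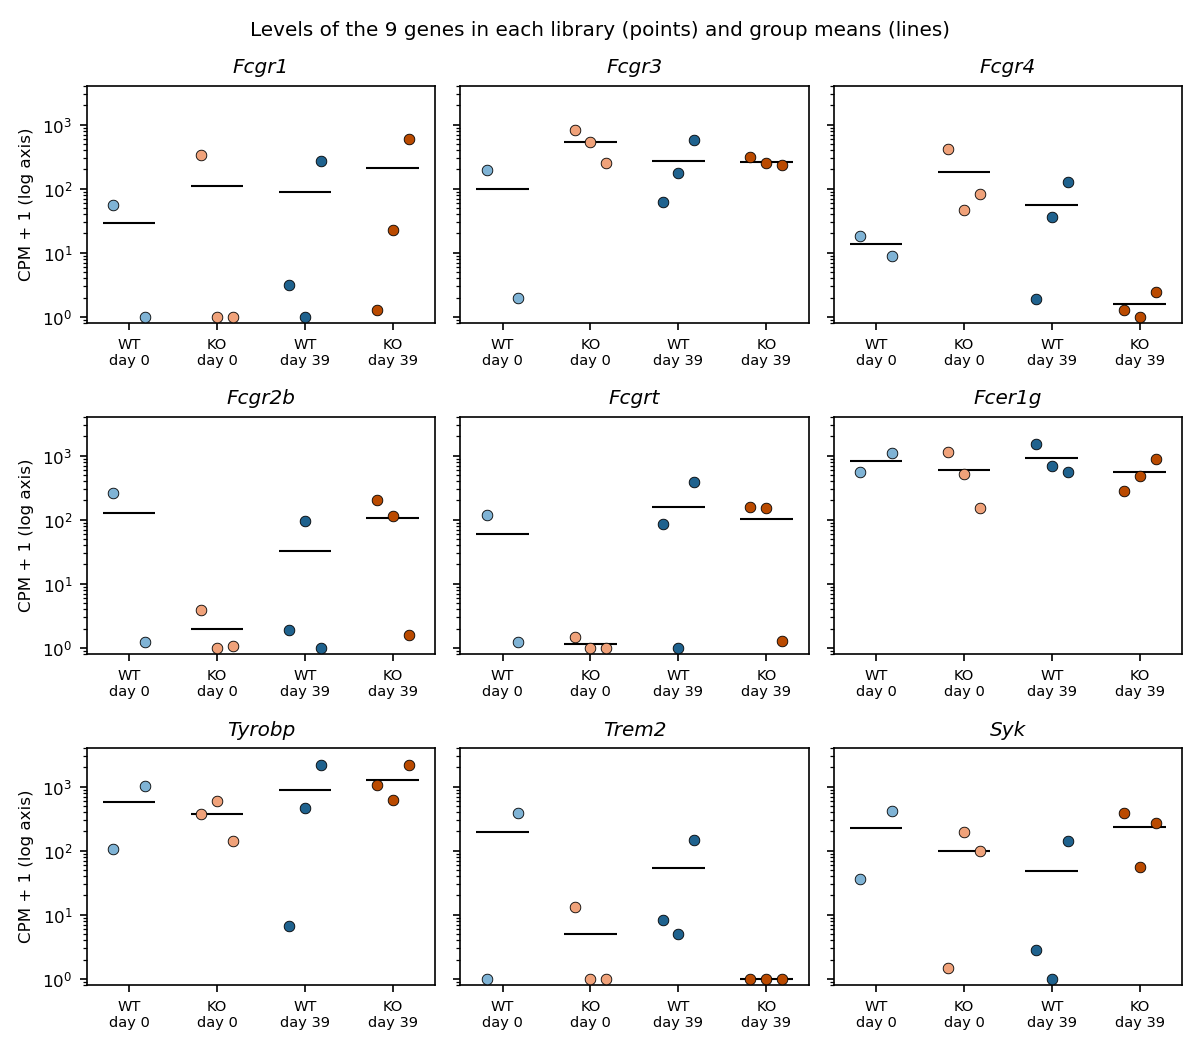
CPM of the 9 genes by group on a log axis of CPM + 1; each panel is a gene, points are libraries, colours are groups and horizontal lines mark group means. Points of a group are spread over much of each axis for Fcgr1, Fcgr2b, Fcgrt, Trem2 and Syk, and lie close together for Fcer1g.

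The question the design poses is how colon macrophages labelled as lacking EP4 differ from WT at each day, and how either genotype differs between the days. At day 0, 0 of 9 genes were called between KO and WT by edgeR at an adjusted p under 0.05, where 0.0143% of all tested genes were. At an unadjusted p under 0.05 there were 0 of the 9, and 7.99% of all tested genes. At that day Fcgr3 and Fcgr4 lay higher in all KO than in all WT libraries, 2 of 9 genes, where 6.73% of all tested genes did, and 0 of 9 lay lower, where 5.25% did. At day 39, 0 of 9 were called, against 0.0286% of all tested genes, and 1 was at an unadjusted p under 0.05, against 7.28%. Trem2 was the 1 gene of the 9 lower without overlap, where 3.99% of all tested genes were. Of the 9, 0 were higher without overlap, where 3.41% of all tested genes were. DESeq2, which gave Fcgr1 and Trem2 no adjusted p, called 1 of the other 7 genes at each day, against 30% of all genes with an adjusted p at day 0 and 14.5% at day 39. Limma-voom called none of the 9, against 2.55% and 0.487% of all tested genes. The median log2 fold change of the 9 genes was -0.63 at day 0 and -0.03 at day 39, and that of all tested genes 1.08 and 0.

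Between the days, 0 of 9 genes were called by edgeR in WT (0.0143% of all tested genes called) and 0 of 9 in KO (0.157% called). Nor was any called over the mean of both genotypes (0.301% called) or for the interaction of genotype and day (0% called). At an unadjusted p under 0.05 there were 0 of the 9 in each of these. Of all tested genes, 6.68% were under it in WT, 18.2% in KO, 19.2% over the mean and 14.4% for the interaction. With the genotypes pooled, none of the 9 separated the days, while 1.6% of tested genes were higher and 0.157% lower. DESeq2 called 2 of the 7 genes it gave an adjusted p between the days in KO, where it called 27% of all such genes, and 1 for the interaction, where it called 22.5%. It called none in WT or over the mean of both genotypes, where it called 28.4% and 29.2% of all. Limma-voom called 1 of the 9 between the days in KO, against 2.96% of all tested genes. It called none in WT, over the mean or for the interaction, against 2.42%, 2.89% and 0.272%. In WT no gene of the 9 separated the days, while 12.7% of tested genes were higher and 4.72% lower without overlap. The members' median log2 fold change was 0.64 in WT and 0.90 in KO, against 1.64 and 0 over all tested genes.

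**Figure D4:**
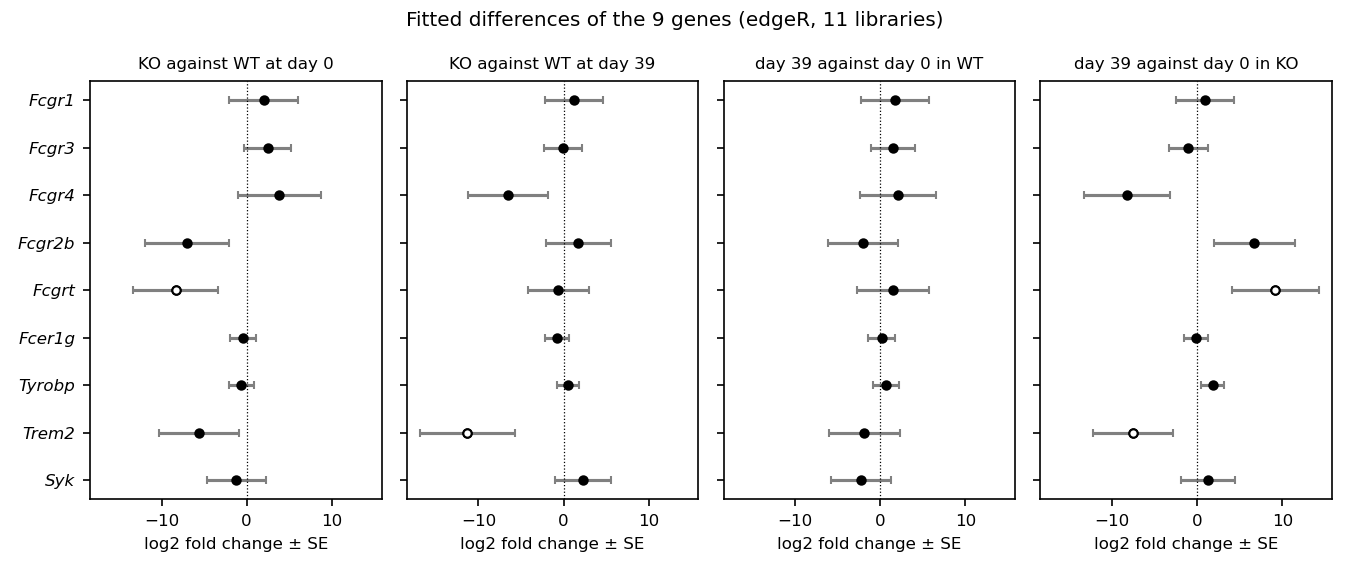
Log2 fold changes with standard errors (horizontal axis, bars ± 1 SE) of the 9 genes from edgeR, in 1 panel for each genotype comparison and each comparison of days; open circles mark genes for which 1 of the groups lay at or below 3 counts in every library, whose fitted values are no bound. Fcgr4 lies at -8.27 ± 5.05 for the days within KO, while Fcer1g lies near 0 with short bars in every panel.

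Libraries of the same group often differed in whether a gene was read. The other libraries of a group averaged at least 100 CPM of a gene of the 9 in 53 cases. A single high library can bring such an average, as for Fcgr1 in KO day 0 with 2059, 0 and 0 counts. In 13 of these cases (24.5%) the remaining library held 10 counts or fewer. Over all listed genes this was 11277 of 24153 cases (46.7%). The 9 genes differed in this: Fcgr1 did so in 5 of its 6 cases, Fcgrt in 3 of 4, Fcgr2b in 2 of 3 and Trem2 in 1 of 1. Syk did so in 1 of 5, Fcgr3 in 1 of 10, Fcgr4 in 0 of 2, and Fcer1g and Tyrobp in 0 of 11 each. The biological coefficient of variation that edgeR estimated ran from 1.57 for Tyrobp to 2.84 for Trem2, beside 2.48 in common over all tested genes.

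Around these genes, 99 further genes of the pathway were read, from other receptors of the adaptors through Src-family kinases and Syk targets to inhibitory receptors and phosphatases. Of them, 98 were listed, 62 were tested and 16 had no count in any library. None passed edgeR's test between genotypes at either day or between days in either genotype, with 5, 2, 3 and 7 at an unadjusted p under 0.05. These are 8.06%, 3.23%, 4.84% and 11.3% of the 62, against 7.99%, 7.28%, 6.68% and 18.2% of all tested genes. DESeq2 gave 45 of them an adjusted p and called 11, 5, 8 and 12 in those comparisons, where it called 30%, 14.5%, 28.4% and 27% of all genes with an adjusted p. The median log2 fold change of the tested pathway genes between KO and WT was 1.16 at day 0 and 0.43 at day 39.

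Among the inhibitory receptors with ITIMs, Sirpa, the receptor for the don't-eat-me ligand CD47, was read in every library. In KO, 3533, 1465 and 516 counts were read at day 0 followed by 4555, 1097 and 1758 at day 39, whereas WT gave 4962 and 2518 followed by 168, 491 and 3677. All KO day 0 libraries, at 33.8 to 567.7 CPM, lay below both WT day 0 libraries, at 593 and 886 CPM, as 5.25% of tested genes did, and the log2 fold change was -1.49 ± 1.96 (edgeR adjusted p = 0.787). Scaled by library size alone the ranges overlapped, with 590.6 CPM for the highest KO and 491 CPM for the lowest WT library. In the other comparisons the groups overlapped. Ceacam1, which epithelial cells also express, was read at 100 counts or more in 10 libraries, with group means of 313 ± 367 CPM (SD, n = 3) in KO and 71.2 ± 100.5 CPM (n = 2) in WT at day 0, and 735 ± 175 and 727 ± 543 CPM (n = 3 each) in KO and WT at day 39. In WT every day 39 library lay above both day 0 libraries, as for 12.7% of tested genes (edgeR adjusted p = 0.422). Neither gene was called by edgeR in any comparison.

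Other receptors that use the same adaptors or a related motif were uneven. Clec4n, which encodes the fungal sugar receptor Dectin-2 and pairs with the gamma chain, reached 100 counts in 7 libraries. Clec7a, which encodes the beta-glucan receptor Dectin-1, reached that level in 8, and its lowest library held 3 counts. Of the Src-family kinases that phosphorylate ITAMs, Lyn reached 100 counts in 5 libraries and Fyn in 4. Downstream of Syk, the GTPase gene Rac1 and the PI3-kinase subunit gene Pik3cd reached it in 8 each. Pik3cd held 1265 to 1711 counts in every WT day 39 library, and between 0 and 3055 elsewhere. The phosphatase genes Ptprc and Inpp5d were read at that level in 6 and 5 libraries, and the adaptor gene Lat2 in 3. Cd79b, which encodes an ITAM chain of the B cell receptor, had at most 3 counts in any library.

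The 1 pathway gene called over the mean of both genotypes was Pigr, the epithelial carrier of IgA and IgM, which rose from day 0 to day 39. Day 0 gave 2407, 1 and 14 counts for KO against 0 and 1 for WT, whereas day 39 gave 2715, 3176 and 5002 for KO against 5114, 125 and 2406 for WT. The log2 fold change was 7.60 ± 1.94 (edgeR adjusted p = 0.0381), and it passed in 7 of 20 other fits, over all of which the adjusted p ran from 0.000355 to 0.557. Within each genotype every day 39 library lay above every day 0 library, as for 8.07% of tested genes in KO and 12.7% in WT, but KO day 0 library 1 lay within the range of the day 39 libraries when the genotypes are pooled. Summed epithelial markers, such as Car1 and Muc2, went from 74.7–1340 CPM to 4039–9503 CPM between the days in KO, and from 919–1776 to 1583–7441 CPM in WT. Their part in the change of Pigr was not tested. Fcrls, an Fc receptor-like gene, was at 0 in all day 0 libraries and reached 100 counts in 3 libraries of day 39. It did not pass edgeR's test between days (adjusted p = 0.414 in WT, 0.273 in KO and 0.192 over the mean of both genotypes). Its days overlapped in KO, and in WT they were apart as for 12.7% of tested genes.

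Markers of other cells that carry Fc receptors or these adaptors were mostly near 0, with exceptions in single libraries. Of the NK cell markers 5 of 6 were at 0 in all libraries, of the listed B cell markers 4 of 5, and dendritic cell markers reached 100 counts in no library. Of the T cell markers only Cd4, which macrophages of the gut can express, reached 100 counts, in 4 libraries. Neutrophil markers summed to at most 236 CPM. Mast cell markers summed to 399 CPM in KO day 0 library 3, where Mcpt4, a mast cell protease gene, held 3862 counts. In that library Fcer1g, Tyrobp and Fcgr3, which mast cells also express, were at 149, 143 and 254 CPM. The mast cell sum was 187 CPM in KO day 39 library 2, all of it Kit, and at most 1.73 CPM in the other 9 libraries. The part of these cells in the members' levels was not tested. Genes of skeletal muscle summed to 1805–22590 CPM and of stroma to 3056–20783 CPM, and the mean of both was highest in KO day 0. Fcgr4 and Fcgr3 also had their highest mean there. Within that group library 1 held the most of both, 415 and 828 CPM, with 2048 CPM of muscle and 4352 CPM of stroma genes. Libraries 2 and 3 held 22590 and 19823 CPM of muscle genes, and 18480 and 20783 CPM of stroma genes. The part of those cells in the level of Fcgr4 and Fcgr3 was not tested.

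Profiles over the 11 libraries were compared by the root mean square difference of log2(CPM + 1), each centred on its own mean, over 2090 genes with at least 100 CPM on average. For Fcer1g the nearest were H2-Ab1 at 0.493, Ptms at 0.537 and H2-Eb1 at 0.630, where the median gene was at 3.58. For Fcgr3 they were Acin1 at 0.758, Pcbp1 at 1.01 and Rpl15 at 1.09. For Tyrobp they were Aph1a at 0.921, Ier5 at 1.17 and Lman2 at 1.34. The nearest to Syk lay further off, Vdac1 at 1.99, Myl12a at 2.08 and Lman2 at 2.22. Of the receptors the gamma chain serves, Fcgr3 was at rank 421 and Fcgr1 at rank 902 in nearness to Fcer1g, while in nearness to Syk, Tyrobp was at rank 42 and Fcer1g at rank 404. Ranked from Tyrobp, Syk was at rank 248. These values describe the same 11 libraries, and no test was made of them.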

How the data were processed

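RNA of colon macrophages was sequenced by a Lexogen QuantSeq kit, which reads near the 3′ end, per the labels' protocols. The authors deposited 1 file per library, in which each gene symbol has a raw read count. The submitters' processing notes name Bowtie2, edgeR and the human build hg19, with no role given, although the symbols are those of mouse genes. No coordinates are given, and strand, filters and molecular identifiers are not given in the sources used here.

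Groups and replicate numbers were taken from the titles. File names differ from them in the later day, which is 35 there, and in WT day 0 library 2, which is numbered 3 there. The test was edgeR 4.0.16 (R 4.3.3): filterByExpr kept 6987 genes, TMM scaled the libraries, and 1 robust quasi-likelihood fit took in the 4 groups together. Tests were two-sided, with Benjamini-Hochberg adjustment over all tested genes at 0.05. SE was derived from the log2 fold change and its F statistic. The floor was 3 counts per library. Alternatives used DESeq2 1.42.0, limma-voom 3.58.1, other scalings and filters, a replicate block, only the groups compared, and each library left out.

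The 9 genes, the pathway lists and the marker lists were chosen with earlier results of these data known. Beyond the 9, genes named are those past the threshold in a pathway list, the 2 highest in mean CPM of each pathway list and of a marker list where it is named (Car1, Muc2, Cd4, Mcpt4, Kit), and 3 nearest profiles, beside Ptger4 from the strain name; C1qa, C1qb, C1qc, Csf1r, Mertk, H2-Aa, Cd74, Ptprc, Itgam, Ly6c1 and Ly6c2 were named from the marker lists after their values were seen. Near the 3′ end (last 500 bases), 2.25% of 50-base words of Fcgr2b are shared with Fcgr3 and none of the other 8 genes' words with another gene. Fcgr3 and Fcgr4 overlap small RNA genes in RefSeq, so how such reads were counted is uncertain.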

Additional observations from a re-analysis of the deposited data

How the results depend on the processing

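None of the 9 genes passed in any comparison under other scalings, other filters, non-robust fitting, the replicate block, only the groups compared, or with any of the 11 libraries left out. DESeq2 called 1 (Fcgrt) between genotypes at day 0, 1 (Fcgr4) at day 39, 2 (Fcgr4 and Fcgrt) between days in KO and 1 (Fcgr4) for the interaction, and limma-voom called 1 (Fcgr4) between days in KO. The cause was not tested. Calls over all genes went up to 1249 between genotypes at day 0, 585 at day 39, 1183 between days in WT, 1144 in KO, 1216 over the mean of both genotypes and 934 for the interaction. Restricting the fit to the groups compared gives no other value for the mean of both genotypes or the interaction, which use all groups, and in it Fcgrt was not tested between genotypes at day 0, Fcgr4 at day 39, and Fcgrt and Trem2 between days in KO. DESeq2 gave Fcgr1 and Trem2 no adjusted p in any comparison. With a replicate block the calls over all genes were 0, 1, 0, 12, 7 and 0 in the same order. The block used the numbers of the titles, while the file name of WT day 0 library 2 has number 3. Whether same-numbered libraries are paired was not tested. Those of different groups deviated with correlations of -0.0137 to 0.0697 (mean 0.0097), and libraries of different numbers with -0.0697 to 0.0457 (mean -0.0049). Of 11 libraries, 6 lay closest to their own number.

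DESeq2 called 11 pathway genes between genotypes at day 0, 5 at day 39, 8 between days in WT, 12 in KO, 8 over the mean of both genotypes and 5 for the interaction; limma-voom called 2 at day 0, 4 between days in WT, 1 (Pigr) over the mean and 0 in the others. The single call over the mean of both genotypes, Pigr, became 0 under DESeq2 size factors, library size alone, upper-quartile scaling, a mean minimum of 10 counts, no filter and the replicate block, and was 0 to 1 with a library left out. It was lost without either WT day 0 library, without any KO day 39 library, and without WT day 39 library 1 or 3. The pathway alternatives were chosen after seeing the data. Raising the detection minimum to 1000 counts left 39 readings of a gene in a library, and without Fcgr1 the share of Fcgr2b in WT day 0 library 1 became 55.0%.

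Of 518 fold changes of the 9 genes under other settings, 481 kept their sign without passing the threshold, 6 passed it and 31 changed sign. The 481 include the DESeq2 values of Fcgr1 and Trem2, which had no adjusted p to set against the threshold. Of 593 fold changes with a library left out, 544 kept their sign without passing and 49 changed sign. No sign change was of a gene that passed. Under limma-voom the log2 fold change of Fcgr1 became -1.27 for genotypes at day 0 and 3.42 for the interaction, Fcgr3 0.41 and Fcgrt 0.86 for genotypes at day 39, Tyrobp -0.34 and Trem2 1.54 for days in WT, and Fcer1g 0.57 for days in KO and 0.51 for the interaction. Under DESeq2 size factors and DESeq2 alike, Fcgr3 became 0.0093 and 0.0092 for genotypes at day 39 and -0.0096 and -0.0096 for the mean of both genotypes, and Fcer1g -0.13 and -0.13 for days in WT and -0.16 and -0.16 for the mean of both genotypes. Under upper-quartile scaling Fcer1g became -1.90 for days in WT, -1.14 for the mean of both genotypes and 1.52 for the interaction, Tyrobp -1.65 for days in WT and Fcgr3 -0.24 for the mean of both genotypes. By library size alone Fcgr3 became -0.10 and Fcer1g -0.17 for that mean. Without a filter Fcer1g became -0.034 for days in WT and -0.24 for the mean, and -0.11 for the mean with at least 10 counts. With the replicate block Fcgrt became 1.37 for genotypes at day 39, Tyrobp -0.30 for days in WT, Fcer1g 0.20 for days in KO and 0.044 for the interaction, and Fcgr1 3.46 for the interaction. Over the scalings and tools, the median log2 fold change of all tested genes ran from 0 to 1.08 for genotypes at day 0 and from 0.48 to 1.64 for days in WT, so directions there are relative to that shift. With the replicate block it was 1.26 and 1.93. With a library left out it ran from 0 (KO day 0 library 3) to 3.28 (WT day 0 library 1) for the first, and from 0.026 (WT day 39 library 1) to 3.89 (WT day 0 library 1) for the second. Over the same scalings and tools it ran from -1.78 to -0.47 for the interaction, and was -5.75 without WT day 0 library 1. It ran from -0.21 to 0.64 for days in KO, 0.18 to 0.82 for the mean of both genotypes and -0.033 to 0 for genotypes at day 39.

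With each library left out, fold changes whose sign turned ranged as follows. Between genotypes at day 0 they ran from -10.34 to 12.40 for Fcgr1, -11.16 to 1.85 for Fcgr2b, -1.33 to 0.23 for Fcer1g, -1.63 to 1.91 for Tyrobp, -13.16 to 7.68 for Trem2 and -2.25 to 1.59 for Syk. Between genotypes at day 39 they ran from -3.003 to 7.59 for Fcgr1, -0.64 to 1.15 for Fcgr3, -1.30 to 1.29 for Fcgrt and -0.19 to 2.47 for Tyrobp. Between days in WT they ran from -4.69 to 12.08 for Fcgr1, -8.42 to 6.68 for Fcgr2b, -0.47 to 9.13 for Fcgrt, -0.45 to 0.78 for Fcer1g, -1.30 to 3.17 for Tyrobp, -5.11 to 11.39 for Trem2 and -7.95 to 0.59 for Syk. Between days in KO they ran from -3.31 to 13.23 for Fcgr1 and -0.66 to 0.75 for Fcer1g. Over the mean of both genotypes they ran from -1.90 to 7.46 for Fcgr1, -0.90 to 6.64 for Fcgr2b, -0.36 to 3.40 for Fcgr3, -0.37 to 0.45 for Fcer1g, -6.36 to 1.85 for Trem2 and -3.33 to 0.87 for Syk. For the interaction they ran from -11.43 to 11.55 for Fcgr1, -0.074 to 15.05 for Fcgr2b, -0.043 to 10.81 for Fcgrt, -1.07 to 0.59 for Fcer1g, -1.53 to 3.11 for Tyrobp and -19.06 to 1.87 for Trem2.

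Of the 9 genes, 6 were read at 3 counts or fewer in 2 to 6 libraries, which limits what their comparisons can show.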
